A study of Mus musculus with 108 samples.

Results

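Type I interferon-stimulated genes were followed across the brain myeloid cells of mice with brain metastases. They are 39 genes, taken by symbol from a fixed list, of the 49585 genes in the count table, and each symbol was found once. RNA was sequenced from 108 libraries of cells purified by flow cytometry from a lung-to-brain metastasis model and its tumour-free counterparts. All mice, controls included, were athymic nude mice (Balb/C, CAnN.Cg-Foxn1nu/Crl), a strain that lacks thymus-derived T cells but keeps natural killer and B cells. The tumour-free, unirradiated groups were microglia, the resident macrophages of the brain (4 libraries), and monocytes of peripheral blood (4 libraries). Without radiotherapy, tumour-bearing brains gave microglia, bone marrow-derived macrophages (BMDM, macrophages that enter from the blood), inflammatory monocytes and granulocytes at a small tumour stage (5, 5, 4 and 4 libraries) and a large stage (5 of each). After whole-brain radiotherapy, the same 4 populations, not separated by stage, came from 5 fractions of 2 Gy at day 3 (4 libraries of each), day 5 (4) and day 10 (3), and from 1 fraction of 10 Gy at day 3 (3). A further 6 libraries of tumour-free microglia, 3 titled day 3 and 3 titled day 5, carry 5x2 in their titles while their radiotherapy field reads none, and they were kept as groups of their own. The labels give no age, sex or tumour cell line, nor the event from which the days were counted. Nothing in them ties libraries to individual animals, so p-values measure only the spread between libraries, which may be technical.

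Type I interferons are secreted by cells that sense foreign or misplaced nucleic acid, and they act through a receptor made of IFNAR1 and IFNAR2. The kinases JAK1 and TYK2 then phosphorylate STAT2, which joins IRF9 in a complex that binds the interferon-stimulated response element in front of its target genes. Many targets belong to the pathway itself, such as the sensors that start it, the factors IRF7, STAT2 and IRF9 that carry it, and USP18, which dampens the receptor. Microglia are known to hold these genes low in the healthy brain and to raise them in infection, injury and ageing.

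The promoters were searched for the interferon-stimulated response element, and the windows that hold it are printed for members on which the later results turn. RefSeq promoter windows of GRCm38.p6, 300 bases long with 250 before the transcription start and 50 after it, were found for 29 of the 39 genes. The letters GAAANNGAAA were searched on both strands, with overlaps allowed. They stand in 16 of the 29 genes (55.2%) and in 17 of their 32 windows, against 3.44% of all 32851 windows. The gamma-activated site TTCNNNGAA, which type II interferon uses, was in 6 of the 29 genes (20.7%) and 6 of their 32 windows, against 8.3% of all windows. Capitals mark each match, shown as its reverse complement where the letters lie on the other strand.
Isg15, chr4:156200850-156200921, minus strand, 103 to 32 bases before the start, 3 overlapping elements: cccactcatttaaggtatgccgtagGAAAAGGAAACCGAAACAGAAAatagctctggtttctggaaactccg
Cxcl10, chr5:92349068-92349127, minus strand, 238 to 179 bases before the start: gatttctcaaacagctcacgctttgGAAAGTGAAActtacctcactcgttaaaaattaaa
Oas1a, chr5:120907526-120907570, minus strand, 45 to 1 bases before the start, 2 overlapping elements: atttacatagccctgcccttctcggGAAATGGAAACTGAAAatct
Slfn5, chr11:82951922-82951981, plus strand, 180 to 121 bases before the start: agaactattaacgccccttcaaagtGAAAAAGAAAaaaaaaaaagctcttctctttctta
Rsad2, chr12:26456538-26456597, minus strand, 145 to 86 bases before the start: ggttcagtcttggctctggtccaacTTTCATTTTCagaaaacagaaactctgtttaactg
Ifit3, chr19:34583348-34583441, plus strand, 181 to 88 bases before the start, 2 elements: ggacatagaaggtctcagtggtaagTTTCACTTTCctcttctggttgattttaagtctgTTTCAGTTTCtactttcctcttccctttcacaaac
Ifit3b, chr19:34607744-34607837, plus strand, 213 to 120 bases before the start, 2 elements: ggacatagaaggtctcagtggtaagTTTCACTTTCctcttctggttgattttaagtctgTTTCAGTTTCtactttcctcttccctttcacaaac
Ifit1, chr19:34640760-34640838, plus strand, 129 to 51 bases before the start, 2 elements: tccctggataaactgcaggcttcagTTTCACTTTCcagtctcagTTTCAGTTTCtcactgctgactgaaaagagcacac
The 94 bases printed for Ifit3 are the same letter for letter as those of its neighbour and near copy Ifit3b. Ifit2, Irf7, Ifi44 and Lgals3bp had no such letters in their windows, which says nothing of the element elsewhere.

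Libraries held 985423 to 18642747 counts in total (median 11362594). Of the 108 libraries, 13 were doubtful by total (under 3000000), by genes detected (over 30000) or by the share of abundant genes at 0 counts (over 1%). They were tumour-free microglia 2 and 3, blood monocytes 1, 2 and 3, small-stage microglia 1 and 4, small-stage granulocytes 1, large-stage BMDM 2, microglia 1, monocytes 3 and granulocytes 3 of 5x2 Gy day 3, and granulocytes 1 of 5x2 Gy day 5. Several results that rest on them are also given without them, but not those of the irradiated groups or of the microglia titled 5x2.

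Over all 28 groups, the mean of the 39 genes on the log2 CPM scale (CPM, counts relative to the library total after trimmed-mean scaling) was lowest in tumour-free microglia and highest in irradiated monocytes. The 4 tumour-free microglia libraries stood at 3.89, 3.40, 3.53 and 4.02, and the 6 titled 5x2 lay between 2.89 and 4.32. The 5 small-stage microglia libraries stood at 6.41, 5.70, 6.65, 6.30 and 6.52, and the 5 large-stage libraries at 6.52, 5.96, 5.93, 5.60 and 6.41. No library of microglia from a tumour-bearing brain, irradiated or not, was as low as any tumour-free one. Group means of BMDM were above those of microglia at both stages, with 6.96 ± 0.41 (SD, n = 5) small and 6.57 ± 0.27 (n = 5) large, and monocytes followed with 7.89 ± 0.50 (n = 4) and 7.16 ± 0.30 (n = 5). Granulocytes had 8.09 ± 0.77 (n = 4) and 7.39 ± 0.51 (n = 5), less than 1 SD above the monocytes. The highest group mean was 8.32 ± 0.23 (n = 4), in monocytes at day 5 after 5x2 Gy. Blood monocytes spread most, from 4.35 to 7.52. In sorted bulk samples such as these, fewer cells of a type and less RNA per cell cannot be told apart.

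**Figure D1:**
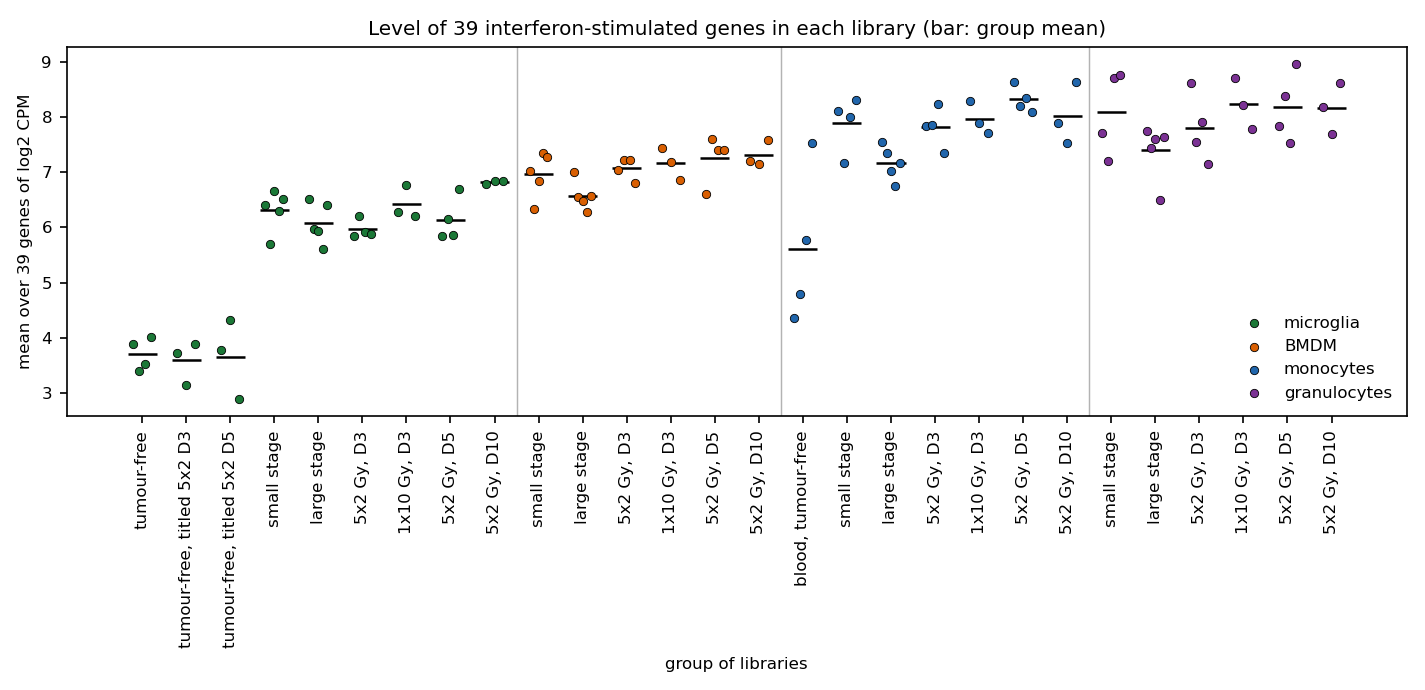
Mean over the 39 genes of log2 CPM (vertical axis) in each library (points) of the 28 groups (horizontal axis), with the group mean as a bar and colours for the populations. All 10 tumour-free microglia libraries lie at 4.32 or below, and the 4 blood monocyte libraries spread from 4.35 to 7.52.

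The first comparison set microglia from brains with metastases, at each stage, against the same 4 tumour-free control libraries, so the results of both stages share their controls. At the small stage 29 of the 39 genes rose and none fell, where 7.55% of the 19754 genes tested rose. At the large stage 27 rose and none fell, where 11.7% of genes did. The median log2 fold change of the 39 was 1.94 at the small stage (range 0.50 to 4.54) and 1.80 at the large stage, against -0.03 and -0.26 over all genes. All 39 values were above 0 in both comparisons, and with the other scaling method (RLE) all 39 remained so at the small stage and 37 at the large stage, where Ifih1 and Ddx58 fell below 0. The libraries of 25 and 24 genes, respectively, lay wholly above those of tumour-free brains, as did those of 4.66% and 9.22% of all genes. With RLE scaling 18 and 17 members did, while the shares of all genes just given are those with trimmed-mean scaling.

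Among the sensors, Zbp1, which binds left-handed nucleic acid and can start cell death, was at 4.48, 3.48, 2.27 and 5.36 CPM in the tumour-free libraries. It was at 80.1, 38.8, 92.9, 82.5 and 119 CPM at the small stage and 108, 60.4, 73.9, 44.5 and 80.8 CPM at the large stage. Every tumour-bearing library was thus far above every control, and Zbp1 rose by log2 4.34 ± 0.45 (SE, adjusted p = 9.54e-08) and 4.02 ± 0.44 (adjusted p = 2.3e-07). Ifi204, a DNA sensor of the interferon-inducible p200 family, was at 2.49, 2.70, 6.82 and 1.86 CPM without tumour. It was between 17.0 and 80.0 CPM at the small stage and between 26.3 and 83.6 CPM at the large stage, without overlap, and rose by 4.04 ± 0.57 (adjusted p = 1.31e-05) and 3.90 ± 0.57 (adjusted p = 1.41e-05). Of the 6 sensors, 4 rose at each stage. The RNA helicases Ddx58 (RIG-I) and Ifih1 (MDA5), the classical sensors of viral RNA, did not pass at either stage, with 0.53 ± 0.26 (adjusted p = 0.176) and 0.79 ± 0.48 (adjusted p = 0.281) at the small stage.

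The 3 transcription factors differed among themselves. Irf7, the factor that amplifies interferon production (chromosome 7, 141262706 to 141266481, GRCm38), was at 11.2, 16, 5.11 and 17.0 CPM in tumour-free microglia. At the small stage it was at 211, 116, 207, 262 and 373 CPM, and at the large stage at 236, 118, 196, 96.7 and 247 CPM. The lowest tumour-bearing library was well above the highest control, and Irf7 rose by 4.18 ± 0.45 (adjusted p = 2.14e-07) and 3.64 ± 0.44 (adjusted p = 8.87e-07). Stat2 and Irf9, the partners of the complex that binds the element printed above, did not pass. Stat2 was at 34.7, 18.6, 144 and 45.7 CPM in the controls and between 97.1 and 127 CPM at the small stage (0.74 ± 0.34, adjusted p = 0.143). Control library 3 alone overlapped the tumour-bearing range of Stat2, and without the doubtful libraries, of which it is 1, Stat2 rose by 1.43 (adjusted p = 0.00118) at the small stage and 1.16 (adjusted p = 0.00146) at the large stage. Irf9 was at 144, 53.8, 7.38 and 186 CPM in the controls and between 97.6 and 151 CPM at the small stage (0.50 ± 0.37, adjusted p = 0.383), and without the doubtful libraries its value was -0.22 (adjusted p = 0.657).

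The IFIT and OAS families, the viperin locus and the Mx genes had 12 of 13 genes higher at each stage, with medians of 2.85 and 2.38. Ifit2, an RNA-binding protein that restrains viral translation, was at 22.5, 8.59, 4.54 and 21.1 CPM without tumour and at 230, 256, 305, 214 and 209 CPM at the small stage. At the large stage it was at 198, 137, 180, 91.5 and 190 CPM. The tumour-bearing libraries did not overlap the controls, and Ifit2 rose by 4.08 ± 0.39 (adjusted p = 3.16e-08) and 3.33 ± 0.38 (adjusted p = 3.95e-07). Oas2, which makes the 2-5A messenger that activates RNase L, had the largest change of the 39 at the small stage, 4.54 ± 0.64 (adjusted p = 1.18e-05). Ifit3 was at 32.5, 19.9, 79.5 and 19.2 CPM in the controls and at 249, 141, 194, 171 and 241 CPM at the small stage, and rose by 2.38 ± 0.37 (adjusted p = 4.03e-05) and 1.98 ± 0.36 (adjusted p = 0.000248). Its near copy Ifit3b was the gene of this group that did not pass. Ifit3b was at 6.85, 6.85, 65.3 and 2.79 CPM in the controls and between 33.3 and 46.6 CPM at the small stage, so that control library 3 was above every tumour-bearing library. Without the doubtful libraries Ifit3b rose by 3.08 (adjusted p = 0.000407) and 2.77 (adjusted p = 0.00029). The same library read high for Ifit1 (59.6 CPM against 5.93 to 7.59 CPM in the other 3 controls), and without the doubtful libraries the change of Ifit1 was 3.39 in place of 1.85 at the small stage and 3.09 in place of 1.43 at the large stage. The calls of Ifit1 with all libraries ended without tumour-free library 2 (adjusted p = 0.054 and 0.13) and, at the large stage, also without tumour-free library 1 or 4 or large-stage library 1 or 5.

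Of the ISG15 system and the ADP-ribosylation genes, 4 of 6 rose at the small stage and 3 at the large stage. Isg15, the ubiquitin-like modifier whose promoter holds 3 overlapping elements, was at 7.22, 7.92, 10.8 and 4.16 CPM in the controls. It was at 58.2, 26.4, 65.6, 59.3 and 62.2 CPM at the small stage and at 71.4, 32.3, 42.7, 37.3 and 45.4 CPM at the large stage. The groups did not overlap, and Isg15 rose by 2.88 ± 0.40 (adjusted p = 1.14e-05) and 2.48 ± 0.40 (adjusted p = 5.06e-05). Among the other effectors 6 of 9 rose at the small stage and 5 at the large stage. Slfn5, a schlafen protein, rose from 3.86, 2.99, 1.70 and 5.71 CPM to between 36.4 and 94.4 CPM at the small stage (4.03 ± 0.54, adjusted p = 5.77e-06) and between 25.3 and 99.0 CPM at the large stage (4.06 ± 0.54, adjusted p = 3.52e-06). Ifitm3, which blocks the entry of viruses through endosomes, rose from 25.1, 29.0, 47.7 and 10.8 CPM to between 99.8 and 368 CPM at the small stage (3.12 ± 0.46, adjusted p = 2.34e-05) and changed by 3.08 ± 0.46 at the large stage. Bst2 (tetherin), which holds budding virus at the membrane, rose less, by 1.90 ± 0.35 (adjusted p = 0.000395) and 1.80 ± 0.35 (adjusted p = 0.000479).

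Both secreted members rose. Cxcl10, the chemokine that draws CXCR3-bearing lymphocytes, was at 4.86, 2.41, 0.568 and 5.67 CPM without tumour. It was at 50.1, 42.3, 97.8, 52.9 and 44.6 CPM at the small stage and at 54.1, 35.6, 25.2, 79.7 and 20.3 CPM at the large stage. All 10 tumour-bearing libraries were above all 4 controls, and Cxcl10 rose by 3.97 ± 0.51 (adjusted p = 3.94e-06) and 3.41 ± 0.50 (adjusted p = 1.5e-05). Lgals3bp, a secreted galectin-binding glycoprotein, was the most abundant of the 39 in microglia, at 166, 76.1, 73.8 and 370 CPM without tumour and between 725 and 1370 CPM at the small stage. It rose by 2.59 ± 0.37 (adjusted p = 1.73e-05) and 2.75 ± 0.38 (adjusted p = 5.68e-06).

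**Figure D2:**
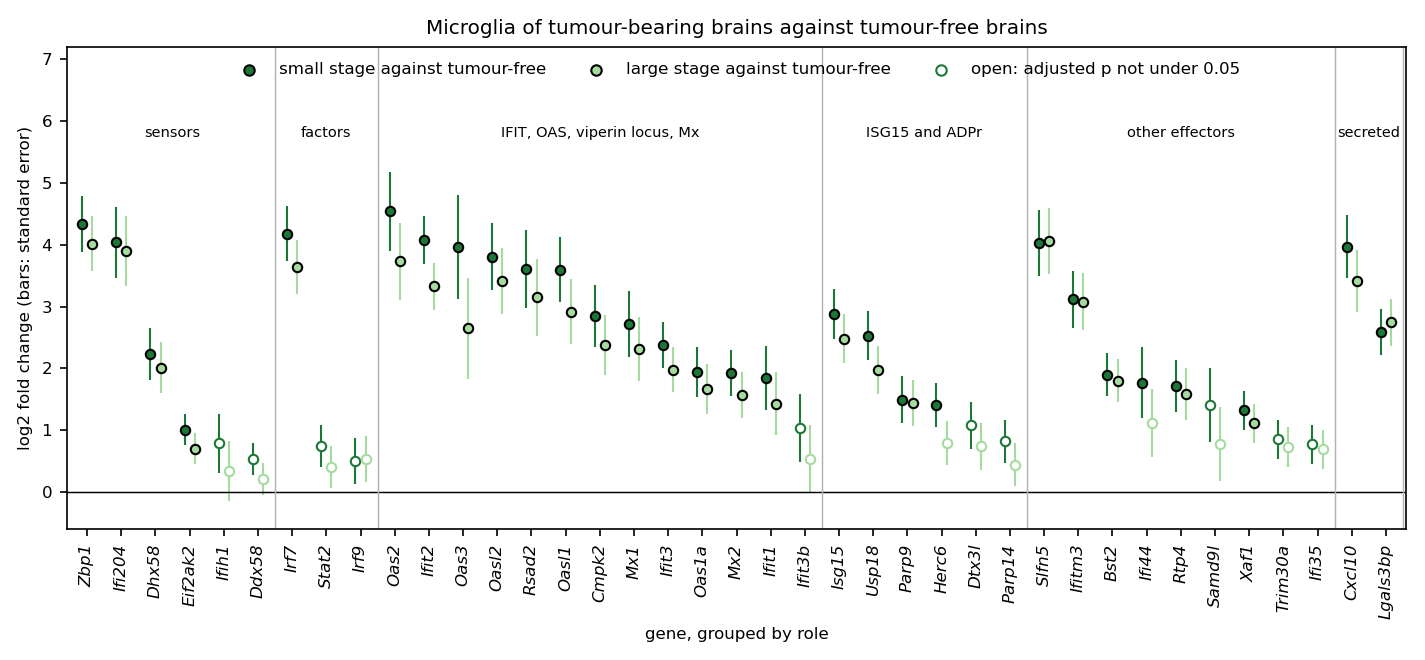
Log2 fold change (vertical axis, bars are standard errors) of each of the 39 genes, grouped by role (horizontal axis), for small-stage (dark) and large-stage (light) microglia against the same tumour-free libraries; open points did not pass the threshold of 0.05. Values run from 0.50 to 4.54 at the small stage, and the transcription factors show 1 filled and 2 open points at each stage.

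Without the doubtful libraries, which leaves 2 control libraries, 25 genes rose at the small stage, 22 of them among the 29, and 26 at the large stage, 23 of them among the 27. The scaling moved the split of all genes called, from 1491 higher and 1544 lower to 1199 and 2333 with RLE at the small stage, and from 2315 and 3994 to 1598 and 5217 at the large stage, with shifts of the median gene of -0.20 and -0.26. Astrocyte transcripts moved the other way: 7 of 8 astrocyte markers fell at each stage, and their summed level was 901 to 1540 CPM in tumour-free microglia, 128 to 354 CPM at the small stage and 157 to 355 CPM at the large stage. Neuron markers summed to 8.28 to 72.1 CPM without tumour and to 2.13 to 17.8 and 3.15 to 28.5 CPM at the small and large stages, with 1 and 4 of 7 lower. Markers of monocytes and their macrophages summed to 11.2 to 128 CPM without tumour, 35.1 to 326 CPM at the small stage and 47.0 to 1590 CPM at the large stage, with 0 and 1 of 7 higher, and those of microglia to 6450 to 21000, 6640 to 16700 and 9360 to 14500 CPM. No astrocyte, neuron, monocyte or microglia marker was at 0 throughout any of these groups, and the part of other cells in the result was not tested.

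Of the 9 interferon genes examined, Ifnb1, encoding interferon beta, was the only one to pass the filter on low counts in microglia. It was at 1.37, 0.386, 0 and 0.133 CPM without tumour, at 8.61, 3.11, 5.67, 10.5 and 7.24 CPM at the small stage and at 3.46, 3.45, 0.301, 40.6 and 0.480 CPM at the large stage. Small-stage libraries were all above the controls, whereas 2 of the 5 large-stage libraries were not, and Ifnb1 rose by 3.83 ± 1.17 (adjusted p = 0.0251) and 4.09 ± 1.18 (adjusted p = 0.0105). These calls ended without the doubtful libraries (2.95, adjusted p = 0.289, and 3.78, adjusted p = 0.108). The small-stage call also ended in 3 of 9 fits that left out 1 library (up to adjusted p = 0.0602, without tumour-free library 4), and the large-stage call without large-stage library 4 (1.79, adjusted p = 0.158). Counts of Ifnb1 were found in 33 of 34 microglia libraries, 19 of 24 BMDM, 11 of 23 monocyte, 4 of 23 granulocyte and 3 of 4 blood monocyte libraries. Single BMDM libraries reached 131 CPM (large-stage library 1) and 47.3 CPM (small-stage library 3), while others of those groups were at 0 to 6.54 CPM. The interferon alpha genes Ifna1, Ifna2, Ifna4 and Ifna5 each had at most 7 counts in all over the 34 microglia libraries.

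Of 11 receptor and signalling genes, 7 rose in microglia at each stage. Socs3, a feedback inhibitor of cytokine signalling, rose by 1.93 ± 0.33 (adjusted p = 0.000164) and 1.86 ± 0.33. The receptor chain Ifnar1 rose by 1.04 ± 0.21 and 1.00 ± 0.21. Without the doubtful libraries Ifnar1 had 0.72 (adjusted p = 0.0689) and 0.64 (adjusted p = 0.0517), so both calls ended. Of 15 genes of the pathways that induce interferon, 2 rose at the small stage, the adaptor Myd88 (1.19 ± 0.22) and the factor Irf1 (1.32 ± 0.33), and 5 rose and 1 fell at the large stage. Genes that respond to type II interferon rose as well, 5 of 9 at each stage, among them the GTPases Gbp2 (2.85 ± 0.44 at the small stage) and Iigp1 (5.37 ± 0.96). At the large stage 1 of the 9, Nos2, fell (-5.41 ± 1.61, adjusted p = 0.013), a call that ended without tumour-free library 3 (-2.26, adjusted p = 0.249).

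BMDM of unirradiated tumours, averaged over both stages, were next compared with microglia of unirradiated tumour-bearing brains, without pairing of libraries. In BMDM 17 of the 39 genes were higher and none lower, where 16.1% of 15103 genes were higher. The median was 0.51 against -0.04 over all genes. Samd9l, an antiviral restriction gene, stood out. It was at 7.94, 6.78, 13.2, 6.53 and 5.02 CPM in small-stage and 8.13, 3.12, 7.93, 2.95 and 5.76 CPM in large-stage microglia. In BMDM it was at 125, 163, 84.8, 40.3 and 211 CPM and at 88.5, 74.1, 41.0, 81.7 and 17.7 CPM. No BMDM library overlapped a microglia library, a pattern that 2 members and 2.74% of all genes had, and Samd9l was higher by 3.70 ± 0.34 (adjusted p = 1.3e-07). Ifitm3 was the other gene without overlap, with 263 ± 99.5 CPM (SD, n = 10) in microglia and 879 ± 216 CPM (n = 10) in BMDM (1.74 ± 0.23, adjusted p = 9.69e-06).

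All 3 transcription factors were higher in BMDM. Irf7 was at 206 ± 82.8 CPM in microglia and 433 ± 182 CPM in BMDM (1.00 ± 0.23, adjusted p = 0.00207), Irf9 was higher by 0.44 ± 0.10 (adjusted p = 0.00226) and Stat2 by 0.27 ± 0.09 (adjusted p = 0.0329). Stat2 passed narrowly, and its call ended in 10 of the 20 fits that left out 1 library. Oas3, the long form of the OAS enzymes, was higher by 1.68 ± 0.34 (adjusted p = 0.000795), Slfn5 by 1.16 ± 0.24 (adjusted p = 0.000941), Ifi204 by 1.17 ± 0.25 (adjusted p = 0.00115) and Ifi35, an interferon-induced leucine zipper protein, by 0.87 ± 0.15 (adjusted p = 0.000161). Isg15 was higher by 0.84 ± 0.23 (adjusted p = 0.00882). Not all members followed: Ifit3 differed by 0.06 ± 0.20 (adjusted p = 0.857), Bst2 by 0.29 ± 0.22 (adjusted p = 0.34), Cxcl10 by -0.41 ± 0.34 (adjusted p = 0.383) and Lgals3bp by -0.58 ± 0.33 (adjusted p = 0.192). The count was 13 without the doubtful libraries and 11 without any single one of small-stage microglia 2, small-stage BMDM 4 or 5, large-stage microglia 2, 3 or 4, or large-stage BMDM 2.

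Of the 11 receptor and signalling genes, 2 were higher and 2 lower in BMDM. The kinase Jak2 (2.09 ± 0.26, adjusted p = 3.74e-06) and Ifnar1 (0.91 ± 0.16, adjusted p = 0.0002) were higher, and the inhibitor Socs3 (-0.85 ± 0.22, adjusted p = 0.00646) was lower. Socs1 was also lower (-0.70 ± 0.26, adjusted p = 0.0494), a call that ended in 14 of the 20 fits without 1 library. Of the 15 induction genes, 3 were lower, the endosomal RNA receptors Tlr3 (-0.87 ± 0.26) and Tlr7 (-0.89 ± 0.27) and the DNA sensor Cgas (-0.47 ± 0.18, lost in 14 of 20 such fits), and Myd88 was higher (0.40 ± 0.12). Markers of the populations moved with the comparison: 7 of 8 microglia markers were lower in BMDM, and the conventional dendritic cell markers summed to 1570 to 3220 and 356 to 2190 CPM in small- and large-stage BMDM against 28.0 to 62.5 and 13.0 to 49.2 CPM in microglia. Their part was not tested.

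Inflammatory monocytes of unirradiated tumours were compared with blood monocytes of tumour-free mice. Of the 39 genes 13 were higher in the tumour and none lower, where 10.6% of 15714 genes were higher, and the median was 1.12 against -0.16 over all genes. Cxcl10 was at 2.13, 5.88, 1.68 and 5.80 CPM in blood. In tumour monocytes it was at 62.1, 25.7, 28.6 and 125 CPM at the small stage and at 34.1, 14.6, 27.1, 9.35 and 27.3 CPM at the large stage. It was the only member without overlap, which 7.09% of all genes higher in the tumour also had, and it was higher by 2.82 ± 0.58 (adjusted p = 0.00387). Ifit1 was at 11.1, 15.9, 16.3 and 56.5 CPM in blood, and in the tumour at 300, 104, 224 and 211 CPM at the small stage and 157, 133, 79.0, 71.3 and 28.8 CPM at the large stage. Blood library 4 reached into the large-stage range, and Ifit1 was higher by 2.20 ± 0.48 (adjusted p = 0.00519). Ifit2 was higher by 2.34 ± 0.53 (adjusted p = 0.00654), Ddx58 by 1.08 ± 0.27 (adjusted p = 0.0102), Ifit3 by 2.0 ± 0.63 (adjusted p = 0.031) and Stat2 by 1.27 ± 0.42 (adjusted p = 0.0388).

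Other members did not pass, and for several of them blood library 4 lay within the range of the tumour. Irf7 was at 59.3, 70.7, 294 and 881 CPM in blood and between 469 and 1450 CPM in tumour monocytes (1.18 ± 0.51, adjusted p = 0.0976). Isg15 (1.41 ± 0.51, adjusted p = 0.0524) and Bst2 (1.04 ± 0.49, adjusted p = 0.125) did not pass either. Ifitm3 was at 729, 452, 1080 and 2440 CPM in blood and between 1210 and 1670 CPM in the tumour (0.03 ± 0.28, adjusted p = 0.952), and with RLE scaling its sign turned. The count rests on single blood libraries. It was 38 without blood library 4, 7, 5 and 8 without blood libraries 1, 2 and 3, and 21 to 25 without any 1 small-stage monocyte library. No share of all genes is given for these fits. Whether the counts moved for the members in particular or for genes at large therefore cannot be told. The first 3 blood libraries are doubtful, and without the doubtful libraries, which leaves blood library 4 as the only one, no gene passed and the median was -0.05. That fit sets tumour monocytes against 1 library, the blood library with the highest mean of the 39 genes, with the spread taken from the tumour libraries alone, so its 0 is not comparable with the count above. Ifit3 and Stat2 lost their calls without blood library 1, 2 or 3 (up to adjusted p = 0.12 and 0.143), and Stat2 also without large-stage library 1, 2, 4 or 5. RLE scaling shifted the median gene by -0.27 and the genes called from 1660 higher and 2467 lower to 1357 and 3464.

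Blood monocytes also held more transcripts of other leukocytes. B cell markers summed to 63.3 to 292 CPM in blood and 0 to 16.8 CPM in tumour monocytes, natural killer and T cell markers to 142 to 3430 CPM against 0 to 46.0 CPM, and granulocyte markers to 57.0 to 455 CPM against 13.4 to 98.8 CPM, with 4 of 4, 4 of 4 and 6 of 7 tested markers lower in the tumour. Their part in the result was not tested. Of the receptor and signalling genes 5 of 11 were higher in tumour monocytes, among them Ifnar1 (2.18 ± 0.27) and Socs3 (2.61 ± 0.44), and Ifng, the type II interferon, was lower (-4.74 ± 1.35, adjusted p = 0.019). Without blood library 1 the call of Ifng ended (adjusted p = 0.0835).

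Granulocytes and inflammatory monocytes of unirradiated tumours split the list. In granulocytes 20 of the 39 genes were higher and 6 lower, where 23.0% of 14270 genes were higher and 26.9% lower, and the median was 1.07 against -0.13 over all genes. The IFIT genes led the higher side. Ifit3b was at 101, 33.8, 74.4 and 133 CPM in small-stage and 28.7, 27.1, 14.5, 20.6 and 14.4 CPM in large-stage monocytes, and at 1260, 230, 1680 and 1240 CPM and 430, 289, 520, 203 and 541 CPM in granulocytes. No library overlapped, and Ifit3b was higher by 4.19 ± 0.37 (adjusted p = 1.04e-08). Ifit1 was at 28.8 to 300 CPM in monocytes and at 389 to 4900 CPM in granulocytes (3.84 ± 0.40, adjusted p = 9.47e-08). Rsad2 (viperin), which makes a nucleotide that ends viral RNA chains, had 3.38 ± 0.36 (adjusted p = 1.61e-07), and Isg15 had 2.67 ± 0.34 (adjusted p = 1.55e-06), with 67.8 to 265 CPM against 292 to 1680 CPM. Ifit3 was higher by 2.22 ± 0.32 (adjusted p = 6.7e-06). Since Ifit3 and Ifit3b are near copies, reads may be split between them.

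The 6 genes against the majority were Mx1, Ifi204, Ifi44, Lgals3bp, Bst2 and Mx2. Mx1, of the Mx family of GTPases, was at 297, 116, 198 and 380 CPM in small-stage and 127, 132, 245, 73.5 and 149 CPM in large-stage monocytes. In granulocytes it was at 1.59, 2.45, 3.57 and 4.49 CPM and at 4.54, 8.56, 0.903, 0.909 and 0.709 CPM. The groups were far apart, and Mx1 was lower by -5.65 ± 0.56 (adjusted p = 4.65e-08). Ifi204 was at 173 to 408 CPM in monocytes and at 2.04 to 24.6 CPM in granulocytes (-4.73 ± 0.43, adjusted p = 1.51e-08). Ifi44 had -4.12 ± 0.78 (adjusted p = 0.000164), Lgals3bp -2.72 ± 0.52 (adjusted p = 0.000185), Bst2 -1.57 ± 0.46 (adjusted p = 0.0066) and Mx2, annotated as a polymorphic pseudogene in GENCODE M21, -1.66 ± 0.53 (adjusted p = 0.0126). Of the transcription factors, Irf9 was higher by 1.45 ± 0.25 (adjusted p = 6.09e-05), while Irf7 (0.61 ± 0.27, adjusted p = 0.064) and Stat2 (-0.03 ± 0.36, adjusted p = 0.953) did not pass. Ifitm3 did not pass either (-0.07 ± 0.24, adjusted p = 0.824), and the signs of Stat2 and Ifitm3 turned under RLE scaling. Cxcl10 was higher by 1.13 ± 0.45 (adjusted p = 0.0429), a call that ended without the doubtful libraries (0.91, adjusted p = 0.0727) and in 11 of 18 fits that left out 1 library. Small-stage granulocyte library 1, with 14% of abundant genes at 0, was the highest of its group for Ifit1, Rsad2 and Irf7 and the lowest for Ifih1, Ifit2 and Eif2ak2, and without the doubtful libraries 28 genes were called, 21 higher and 7 lower.

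Upstream genes differed between granulocytes and monocytes in both directions. Of the 15 induction genes 7 were lower and 2 higher in granulocytes, among them the RNA adaptor Mavs (-3.38 ± 0.62), the DNA adaptor Tmem173 (STING, -2.26 ± 0.39) and the factor Irf8 (-3.46 ± 0.58), while Irf1 (1.95 ± 0.29) and Myd88 (1.43 ± 0.20) were higher. Of the receptor and signalling genes 6 of 11 were higher and 2 lower, led by the inhibitor Socs1 (3.59 ± 0.60), which was at 861 CPM in small-stage granulocyte library 1 and at 24 to 39 CPM in the other 8 granulocyte libraries, against 5.61 to 12.5 CPM in monocytes. Without the doubtful libraries Socs1 was higher by 2.05. Ifnb1 was lower (-3.17 ± 1.31, adjusted p = 0.0478), a call lost without the doubtful libraries (adjusted p = 0.0856). All 8 granulocyte markers were higher in granulocytes, with a summed level of 8070 to 35900 CPM against 13.4 to 98.8 CPM in monocytes. The 7 monocyte and macrophage markers summed to 1740 to 5080 CPM in granulocytes and 5230 to 10200 CPM in monocytes, and their part in the result was not tested.

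Across the 4 populations of unirradiated tumours, levels of the 39 genes were a mean of 9 or 10 libraries each. Granulocytes had the highest mean of 27 genes, monocytes of 11 and microglia of 1, Lgals3bp, and BMDM of none. Microglia had the lowest mean of 29 genes, granulocytes of 7 and BMDM of 3. Irf7 showed the usual order, with lowest, median and highest libraries of 96.7, 209 and 373 CPM in microglia, 221, 409 and 782 CPM in BMDM, 469, 746 and 1450 CPM in monocytes and 343, 750 and 3200 CPM in granulocytes. Monocytes and granulocytes did not differ beyond their spread. Isg15 had means of 50.1, 91.7, 152 and 799 CPM in that order, Samd9l of 6.74, 92.7, 174 and 708 CPM and Oas3 of 11.6, 35.8, 116 and 468 CPM. Lgals3bp ran the other way, with 1120, 764, 562 and 74.0 CPM.

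**Figure D3:**
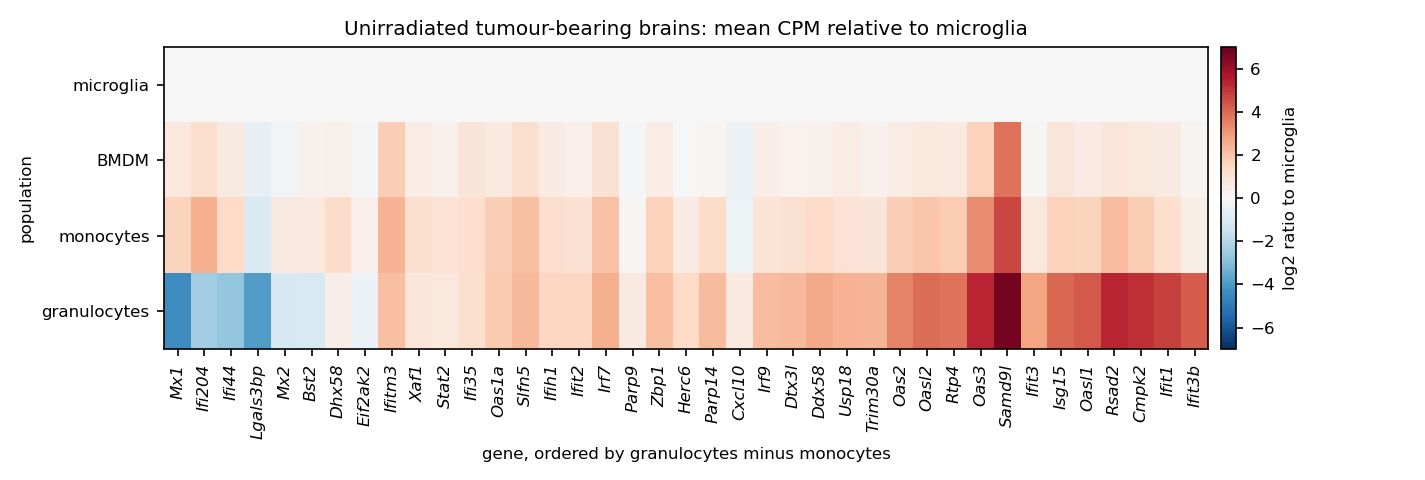
Log2 ratio of the mean CPM to that of microglia (colour scale) for each of the 39 genes (horizontal axis, ordered by granulocytes against monocytes) in 4 populations of unirradiated tumours (vertical axis). Granulocytes have the highest mean of 27 genes, and Mx1, Ifi204, Ifi44 and Lgals3bp are among those they hold below microglia.

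Members were also compared by their pattern over the groups. Each gene's mean log2 CPM was correlated with the mean of the other 38 across the 28 groups, as a description without a test, since the groups share populations and libraries differ in depth. Irf7 followed the others most closely (r = 0.99), then Slfn5 (0.98) and Oas1a (0.97), and 31 of the 39 genes reached 0.8. Within groups the values were lower: with each library taken as its deviation from its group mean, the median r was 0.55 in microglia, 0.63 in BMDM, 0.73 in monocytes and 0.67 in granulocytes, and 8, 9, 13 and 7 genes reached 0.8. Lgals3bp (-0.18), Ifi44 (-0.01), Mx1 (0.07), Bst2 (0.40), Mx2 (0.41) and Ifi204 (0.46), the same 6 that were lower in granulocytes, were the least alike. Since the 28 groups include granulocytes, this overlap is not a separate result. Over the 22 groups without granulocytes, 38 of the 39 reached 0.8, and the lowest was Lgals3bp with 0.61.

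Large-stage and small-stage tumours were compared within each population, and no member passed in any of the 4 with edgeR's quasi-likelihood test. Over all genes tested, the share called was 0% in microglia, BMDM and monocytes and 0.0141% in granulocytes. The values pointed down at the large stage nonetheless, with 36, 35, 39 and 39 of the 39 below 0 and medians of -0.38, -0.34, -0.71 and -1.12 in microglia, BMDM, monocytes and granulocytes. At an unadjusted p under 0.05 there were 2, 7, 20 and 23 lower and 0 higher, where 11.5%, 2.58%, 2.09% and 7.38% of all genes were lower. The 2 in microglia are thus below the share of all genes. DESeq2 called 1 lower in monocytes and 27 in granulocytes, where it called 0.0549% and 4.75% of all genes lower, and none in the other populations. In microglia, Ifit2 was at 209 to 305 CPM in small-stage and 91.5 to 198 CPM in large-stage libraries, without overlap (-0.74 ± 0.31, adjusted p = 0.37). In BMDM, Stat2 was at 144, 147, 134, 143 and 148 CPM small and 89.2, 96.7, 112, 95.7 and 104 CPM large, also without overlap (-0.49 ± 0.14, adjusted p = 0.734), and Irf7 had -0.74 ± 0.23 (adjusted p = 0.778). In monocytes, Ifit3b was at 33.8 to 133 CPM small and 14.4 to 28.7 CPM large, without overlap (-2.03 ± 0.45, adjusted p = 0.613), and Ifit3 had -1.48 ± 0.40 and Irf7 -0.86 ± 0.23.

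In granulocytes the stage values came closest to the threshold. Irf7 was at 3200, 560, 1790 and 1470 CPM in the small-stage libraries and at 742, 574, 812, 343 and 750 CPM in the large-stage ones (-1.69 ± 0.42, adjusted p = 0.0746). Small-stage library 2 alone lay within the large-stage range. Oasl1, an inhibitor of Irf7 translation, had -2.04 ± 0.50 and Cxcl10 -2.36 ± 0.58, both at an adjusted p of 0.0695, and Ifit3 had -1.99 ± 0.50 (adjusted p = 0.0746). Without small-stage library 2, 14 members were lower, and without library 3 or 4 of that stage 6 and 4 were. With RLE scaling 24 were lower and the median was -2.16, while the genes called overall went from 2 to 14 higher and 1639 lower, and the median gene shifted by -0.19. Without the doubtful libraries, small-stage library 1 among them, none was called. Whether microglia and BMDM differed in their stage change was tested by an interaction over both populations, in which no member passed, the median was 0.10, 0% of genes were called, no member had an unadjusted p under 0.05 and DESeq2 called none.

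Each irradiated group was set against both unirradiated stages of its population, averaged with equal weight because irradiated tumours have no stage label. The 4 comparisons of a population share those unirradiated libraries. No member passed in any of the 16 with edgeR's quasi-likelihood test. In microglia the share of all genes called was 0.0607% at day 3 and 0.0354% at day 5 after 5x2 Gy, 0.00506% at day 10 and 0.101% at day 3 after 1x10 Gy. The medians of the 39 genes were -0.25, -0.09 and 0.50 at days 3, 5 and 10 after 5x2 Gy and 0.10 at day 3 after 1x10 Gy. At an unadjusted p under 0.05, 1, 1 and 0 were lower and 0, 0 and 5 higher in the first 3, none in the last, and DESeq2 called none. Over all genes 0.992% and 1.81% were lower at days 3 and 5, and 1.76% were higher at day 10. Irf7 was at 87.4, 140, 103 and 108 CPM at day 3 after 5x2 Gy, at 168, 326 and 179 CPM at day 3 after 1x10 Gy, at 125, 157, 109 and 324 CPM at day 5 and at 341, 374 and 351 CPM at day 10. The unirradiated libraries ran from 96.7 to 373 CPM, so that day 3 after 5x2 Gy lay in the lower part of that range (-0.92 ± 0.35, unadjusted p = 0.0129, adjusted p = 1) and day 10 at its top (0.71 ± 0.35, adjusted p = 0.909).

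Day 10 microglia were also the most alike of all groups, at 6.79, 6.83 and 6.84 for the mean of the 39 genes. There, 36 of 39 values were above 0, and the libraries of 10 genes lay above all unirradiated ones, as did those of 0.982% of all genes. That number depends on the scaling and was 4 with RLE, where 0.820% of all genes did so. Zbp1 was at 137, 153 and 156 CPM against 38.8 to 119 CPM without irradiation (0.84 ± 0.34), Ddx58 at 115, 110 and 135 CPM against 54.5 to 88.2 CPM (0.64 ± 0.24), and Cmpk2, the kinase beside viperin, at 40.9, 52.1 and 67.5 CPM against 14.7 to 38.8 CPM (0.96 ± 0.39). All had an adjusted p of 0.909, as did Samd9l (1.37 ± 0.50) and Bst2 (0.63 ± 0.31). In the other irradiated microglia no member was without overlap. Ifnb1 in irradiated microglia was at 0.374 to 5.93 CPM.

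In BMDM the medians were above 0 after every schedule, with 0.23 and 0.31 at day 3 after 5x2 and 1x10 Gy, 0.42 at day 5 and 0.47 at day 10. The share of all genes called was 0.00630% at day 3 after 1x10 Gy and 0% in the other 3. Unadjusted p-values under 0.05 numbered 4, 6, 14 and 13 higher and 1, 1, 0 and 0 lower in that order, where 2.46%, 4.05%, 3.15% and 3.43% of all genes were higher and, for the first 2, 3.40% and 5.29% lower. DESeq2 called none. Ddx58 was at 148, 162 and 184 CPM at day 10 against 56.3 to 142 CPM without irradiation (0.82 ± 0.20, adjusted p = 0.449). Oas3 was at 67.2, 72.1 and 96.5 CPM against 12.8 to 66.8 CPM (1.13 ± 0.29) and Stat2 at 168, 189 and 161 CPM against 89.2 to 148 CPM (0.48 ± 0.14). These 3 and Dhx58, a helicase that regulates RIG-I signalling (0.55 ± 0.19), did not overlap. With the same trimmed-mean scaling, 1.54% of all genes did not on that side. With RLE scaling 3 members did not overlap, for which no share of all genes is given here. Cxcl10 went the other way at day 3 after 5x2 Gy, at 19.5, 21.1, 14.5 and 9.49 CPM against 12.8 to 77.5 CPM (-1.29 ± 0.46, adjusted p = 0.81).

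Since day 3 after 5x2 Gy had a median below 0 in microglia and above 0 in BMDM, the difference itself was tested. No member passed, 0.00516% of all genes did, and DESeq2 called none. The change in BMDM minus that in microglia had a median of 0.47, 36 of 39 values were above 0, and 10 had an unadjusted p under 0.05, where 0.784% of all genes had one on that side. Irf7 had 1.05 ± 0.38, Oas3 1.5 ± 0.55 and Stat2 0.52 ± 0.17, each with an adjusted p of 0.832.

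Monocytes had medians of 0.24 and 0.36 at day 3 after 5x2 and 1x10 Gy, 0.71 at day 5 and 0.44 at day 10, with 0% of all genes called each time. At day 5 after 5x2 Gy 38 of 39 values were above 0, 28 members had an unadjusted p under 0.05 and DESeq2 called 4, where 5.37% and 0.336% of all genes were higher by these rules. At day 3 after 5x2 Gy, day 3 after 1x10 Gy and day 10 the unadjusted counts were 0, 9 and 10, where 3.39% and 2.24% of all genes were higher in the last 2, and DESeq2 called none. In the monocytes of day 5 after 5x2 Gy, Ifit3b was at 204, 109, 180 and 113 CPM, against 14.4 to 133 CPM without irradiation (1.85 ± 0.38, adjusted p = 0.15). Irf7 was then at 1600, 1240, 1400 and 1490 CPM against 469 to 1450 CPM (0.80 ± 0.20, adjusted p = 0.215), at the upper end of the unirradiated range. Cmpk2 had 1.71 ± 0.39, Ifit1 1.92 ± 0.45 and Ifit3 1.43 ± 0.34, all with an adjusted p of 0.195. Markers of plasmacytoid dendritic cells, which make much type I interferon, moved with this group: 8 of the 9 had values below 0 (median -3.12) and none passed. They summed to 153 to 296 CPM at day 5, against 322 to 515 CPM at the small and 345 to 991 CPM at the large stage, and none was at 0 throughout. A large part of these sums was Tcf4, the marker not below 0, with a mean of 186 CPM both at day 5 and without irradiation. Siglech was at a mean of 17.4 CPM against 137 CPM (-2.9 ± 0.68, adjusted p = 0.195). The 7 conventional dendritic cell markers also had values below 0 (median -1.79). Their part in the result was not tested. The sign can depend on the stage taken as reference. In microglia, day 3 after 1x10 Gy had a median of -0.07 against the small stage and 0.28 against the large stage, and day 5 had -0.26 and 0.07. At day 3, the monocyte medians were -0.07 and -0.01 against the small stage and 0.55 and 0.72 against the large stage for 5x2 and 1x10 Gy.

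Granulocyte medians after irradiation had no stable sign. They were -0.11 and 0.18 at day 3 after 5x2 and 1x10 Gy, 0.36 at day 5 and -0.03 at day 10, with 0% of genes called, and with RLE scaling -0.71, -0.48, -0.25 and -0.53. Against the small stage alone they were -0.77, -0.37, -0.23 and -0.70, and against the large stage alone 0.58, 0.85, 0.98 and 0.53. Unadjusted p-values under 0.05 numbered 0, 4, 3 and 1 higher and 1, 1, 2 and 0 lower. Over all genes 0.900%, 2.29% and 1.28% were higher in the last 3 and 2.35%, 5.12% and 4.67% lower in the first 3. DESeq2 called 1 lower, at day 5, where it called 1.08% of all genes lower. The smallest adjusted p there was that of Lgals3bp, at 13.8, 8.66, 9.47 and 28.4 CPM at day 5 against 6.38 to 275 CPM without irradiation (-2.25 ± 0.74, adjusted p = 0.475). Lgals3bp is the member most abundant in microglia, and the 8 microglia markers all had values below 0 in these granulocytes (median -2.56), none past the threshold. They summed to 321 to 854 CPM at day 5 against 413 to 3000 CPM in small-stage and 313 to 1030 CPM in large-stage granulocytes, none at 0 throughout. The 7 monocyte and macrophage markers had a median of -0.02. Their part was not tested.

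**Figure D4:**
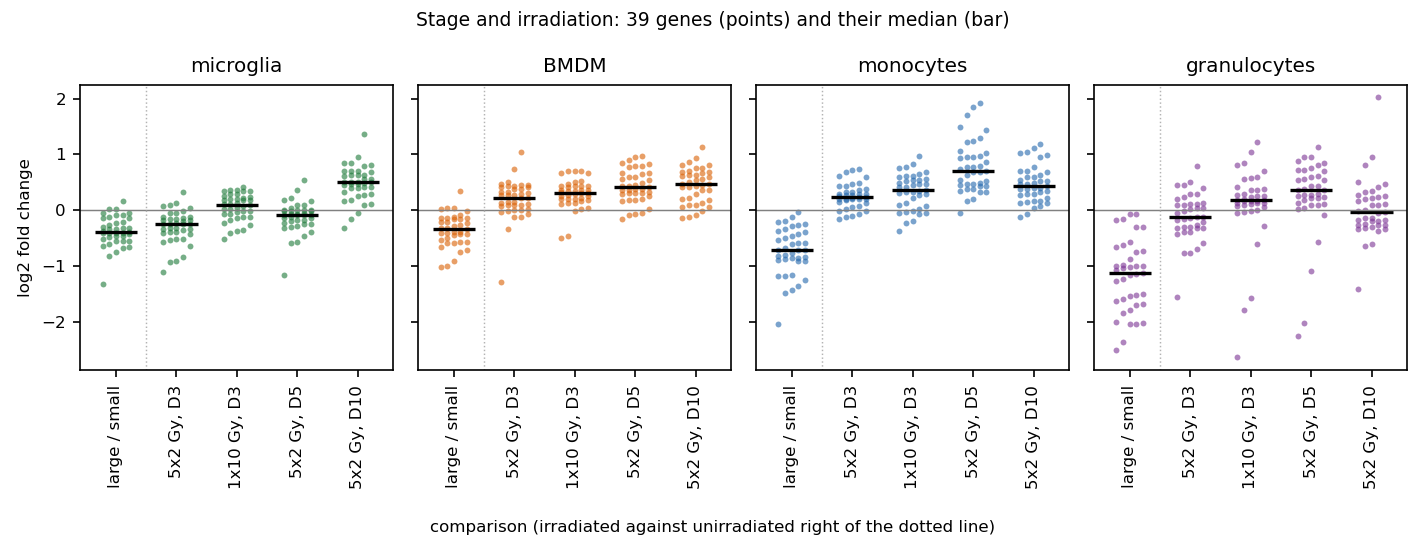
Log2 fold change (vertical axis) of each of the 39 genes (points) with their median (bar) in 4 populations, for large against small stage and for the 4 irradiated groups against the unirradiated ones (horizontal axis). Stage medians run from -0.34 to -1.12 and lie below 0 in each population, whereas irradiation medians run from -0.25 to 0.71.

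The tumour-free microglia titled 5x2 were compared with the other tumour-free microglia. No member passed with edgeR's quasi-likelihood test, where 1.91% (titled day 3) and 1.35% (day 5) of all genes did. The medians were -0.37 and -0.31, 0 and 2 members were higher and 9 and 8 lower at an unadjusted p under 0.05, and DESeq2 called 9 and 5 lower. Over all genes 16.8% and 15.1% were lower unadjusted and 9.55% and 7.57% by DESeq2, and 8.34% were higher unadjusted at day 5. Ifit1 came closest, at 7.17, 2.86 and 5.03 CPM (day 3) and 3.94, 10.2 and 2.34 CPM (day 5) against 7.59, 6.95, 59.6 and 5.93 CPM (-2.08 ± 0.60, adjusted p = 0.0584, and -1.95 ± 0.60, adjusted p = 0.0728). Control library 3 was above every titled library, and the other 3 controls lay within the range of the titled ones. The count of members called was 5, 4, 0 and 5 for day 3 and 2, 3, 0 and 2 for day 5 without tumour-free library 1, 2, 3 and 4, all of them lower. Irf7, at 9.35 to 29.1 CPM in the 6 titled libraries, was near the 5.11 to 17.0 CPM of the controls, below the 87.4 CPM or more of all microglia from tumour-bearing brains. With RLE scaling, the genes called went from 163 higher and 215 lower to 138 and 536 (day 3) and from 157 and 109 to 114 and 148 (day 5), and the median gene shifted by -0.18 and -0.12.

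Ifi44, a cytoplasmic antiviral protein (chromosome 3, 151730922 to 151749960), showed a pattern of its own, singled out after its values were seen. In 6 libraries of microglia, BMDM and monocytes it was 6.26-fold to 25.8-fold below the next lowest of its group. These were large-stage microglia 3 (23.2 CPM, next 236 CPM), large-stage BMDM 4 (25.6, next 263 CPM) and large-stage monocytes 4 (17.9, next 463 CPM). The other 3 all carried number 2 at day 10 after 5x2 Gy, with 56.5 CPM in microglia (next 354 CPM), 57.9 CPM in BMDM (next 449 CPM) and 53.5 CPM in monocytes (next 674 CPM). Irf7 was in none of these libraries 4-fold below the next of its group, at 196, 221 and 521 CPM and at 374, 488 and 932 CPM. The 221 CPM of large-stage BMDM 4 was still the lowest Irf7 of all unirradiated BMDM libraries (median 409 CPM). The 521 CPM of large-stage monocytes 4 was near the lowest of unirradiated monocytes (469 CPM, median 746 CPM). Both libraries were also the lowest of their groups for the mean of all members (-0.3 and -0.41 from the group means). Of 702 pairs of a member and a group of these populations, 9 had a lowest library at least 4-fold below the next, the 6 of Ifi44, 2 of Rsad2 (small-stage BMDM 2 and day 5 BMDM 1) and 1 of Samd9l (day 5 monocytes 4). The large-stage value of Ifi44 in microglia, which did not pass (1.12 ± 0.55, adjusted p = 0.116), includes library 3. Its small-stage call (1.77 ± 0.57, adjusted p = 0.0323) ended without tumour-free library 1, 2 or 3 or small-stage library 4 or 5 (up to adjusted p = 0.0938).

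**Figure D5:**
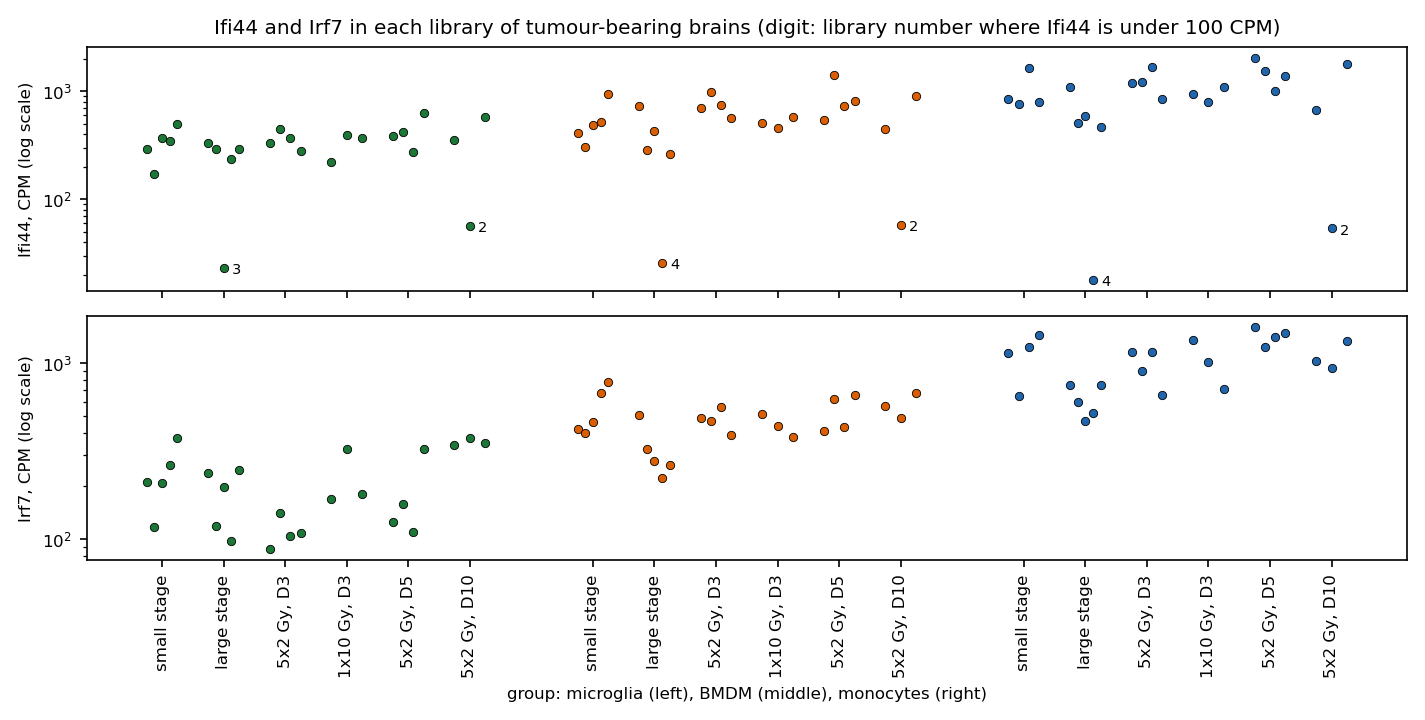
CPM of Ifi44 (upper panel) and Irf7 (lower panel) on log axes in each library (points) of microglia, BMDM and monocytes from tumour-bearing brains, by group (horizontal axis). The 6 numbered libraries have Ifi44 at 17.9 to 57.9 CPM, while Irf7 in none of them is 4-fold below the next library of its group.

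In some cases, libraries of different populations that carry the same number in a group lay on the same side for the mean of the 39 genes. In small-stage tumours number 2 was the lowest of all 4 populations, by -0.62, -0.63, -0.73 and -0.89 from the group means of microglia, BMDM, monocytes and granulocytes. In large-stage tumours number 4 was the lowest in all 4 (-0.48, -0.30, -0.41 and -0.88), and number 1 was the highest in all 4 (0.44, 0.43, 0.38 and 0.36). Of the 23 numbers present in 4 populations, 6 had all 4 libraries on the same side. How many would do so by chance was not computed. The labels do not say that a number marks an animal.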

How the data were processed

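RNA-seq was done on 108 libraries of sorted cells. The values are counts per gene deposited by the authors as whole numbers in 1 table, not normalized. Per the submitters' processing notes, the tools were FastQC, TopHat2 2.0.14, HTSeq and DESeq2 1.18.1, on GRCm38. The annotation used, like the strand setting of the counting, is not given in the sources used here, so genes that overlap another gene (14 members on the opposite strand and 4 on the same strand in GENCODE M21) and near copies (Ifit3 and Ifit3b, Oas1a, Ifi204, Trim30a) are uncertain to that extent. Samples were grouped from their labels by cell type, stage and radiotherapy.

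Each comparison was fitted across all genes with edgeR 4.0.16 (R 4.3.3): filterByExpr (minimum count 10, minimum total 15), TMM scaling, 1 mean per group, no covariates, and the quasi-likelihood test, with p-values adjusted by Benjamini-Hochberg over all genes tested and a threshold of 0.05. "Passed", "rose", "higher" and "called" mean an adjusted p under it. The error of a log2 fold change is a standard error, computed from the test statistic. The irradiated groups and the stages of 1 population shared a fit. CPM used TMM factors over all 108 libraries, and log2 CPM a prior count of 1. The scripts were tested on simulated data.

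The alternatives were RLE scaling, no filter, DESeq2 1.42.0, the replicate number as a block, 1 stage as reference and leaving out each library. Leaving out the doubtful libraries was added after seeing the data, as was their definition. The members and the lists of pathway genes and markers were chosen with earlier results of these data known. Named members were those with the smallest adjusted p (up to 6 in the microglia comparisons and BMDM against microglia, 4 elsewhere), those against the majority, and 8 fixed ones (Irf7, Ifit3, Isg15, Stat2, Bst2, Ifitm3, Cxcl10, Lgals3bp). Up to 3 other genes per list followed the same order. The remarks on Ifi44, Rsad2, Ifit3b, Ifih1, Irf9 and single libraries were chosen after their values were seen. Promoters came from RefSeq (GRCm38.p6). Figures were drawn with matplotlib 3.10.9. A gene of the signalling list is not reported here by name.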

Additional observations from a re-analysis of the deposited data

Results flagged for a closer look

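Of 18 groups of 4 to 10 libraries, 1 had a library set apart from the others for the mean of the 39 genes. Large-stage granulocyte library 4 stood at 6.5 on the log2 CPM scale, while the other 4 libraries stood at 7.75, 7.44, 7.59 and 7.64. Chance flags about 1 in 20 groups. In that library Irf7 was at 343 CPM against 574 to 812 CPM in the other 4, and Cxcl10 at 6.54 CPM against 34.1 to 45.4 CPM. The cause was not tested.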

How the results depend on the processing

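The count of members called in microglia with tumour against without stayed within 1.5 times of 29 and 27 under every alternative run, at 25 to 33 and 25 to 29. In granulocytes against monocytes it was 23 to 29. In BMDM against microglia the fits without 1 library gave 11 to 21 members against 17. In tumour against blood monocytes the count was 13, and it was 33 without the filter, 20 with DESeq2, 0 without the doubtful libraries (a fit against blood library 4 alone, and so not comparable) and 5 to 38 without 1 library. Members called kept their direction. Lgals3bp, not called in BMDM against microglia, was lower there with the replicate block (-0.81) and without large-stage BMDM library 5. Several counts of 0 did not hold. For large against small stage, granulocytes had 24 lower with RLE scaling, 11 without the filter, 27 with DESeq2 and 0 to 14 without 1 library, and monocytes had 6 without the filter and 1 with DESeq2. Monocytes at day 5 after 5x2 Gy had 14 higher without the filter, 4 with DESeq2 and 4 against the large stage alone, and granulocytes then had 1 lower without the filter and 1 with DESeq2. The tumour-free microglia titled day 3 had 1 lower with RLE scaling, 1 without the filter, 9 with DESeq2 and 0 to 5 without 1 library, and those titled day 5 had 5 with DESeq2 and 0 to 3 without 1 library. The cause of these differences between settings was not tested. All these counts are of members alone. Numbers of all genes called with RLE scaling and shares with DESeq2 are given with the comparisons above. For the other settings, fits without 1 library included, no share of all genes is given here or above, so these counts cannot be set against one.

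The labels do not say what the replicate numbers mark. Residual correlations between same-numbered libraries of different populations ran from -0.29 to 0.46, with a mean of 0.11, so not every pair deviated together and the fit with the number is an alternative. With the number as a replicate block, 28 and 26 members were called in small- and large-stage microglia against tumour-free, 20 in BMDM against microglia, 17 in tumour against blood monocytes, 25 in granulocytes against monocytes and 0 in every other comparison. Depth and quality limit the controls most, since 2 of the 4 tumour-free microglia and 3 of the 4 blood libraries are doubtful.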
